A study of Mus musculus with 21 samples.

Results

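The WNT ligands, their Frizzled receptors and the secreted proteins that modulate them were followed in mouse formative stem cells, epiblast stem cells and epiblasts taken from single embryos. Members were chosen by gene symbol: every WNT, Frizzled, Sfrp, Dkk, R-spondin and Lgr4 to Lgr6 gene in the count table, together with Frzb, Wif1, Lrp5, Lrp6, Porcn, Wls and Ror2. This rule, set with earlier results of these data known, found 51 of the 33861 genes in the table. They comprise 19 ligands, 2 secretion genes, 10 Frizzled receptors, 3 coreceptors, 7 R-spondins or R-spondin receptors, 6 antagonists that bind WNT itself and 4 Dickkopf genes.

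RNA was sequenced from 21 samples in 6 groups. FS cells, labelled as formative stem cells and grown in A3XR medium, gave 6 samples: line 1 (5cdr1) at passages 10, 11 and 18, and line 2 (5cdr2) at passages 12, 13 and 16. AF and AFX cells, labelled as EpiSCs (epiblast stem cells), were grown in the media of those names at passages 14, 15 and 16, and both are titled E14, a widely used mouse ES line. E5.0, E5.5 and E6.0 are epiblasts collected 1 embryo at a time, 3 per stage; the titles call the last stage E6.0, whereas another label field gives day 6.5. No group carries a stated mutation, transgene or drug beyond the medium. The labels do not expand the medium names. From general knowledge of these cultures, and not from the labels, A stands for activin, F for FGF2, X for the tankyrase inhibitor XAV939, which dampens β-catenin signalling, and R for an inhibitor of retinoic acid receptors. FS cells differ from AF and AFX cells in line and in medium together, so these cannot be told apart. Passages of 1 line are not separate derivations, and p-values between cultures then measure the spread between passages.

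Each cultured sample held 1000 cells. Total counts ran from 5827093 to 15916800 per sample, and levels are given as CPM, counts scaled to the library's total with TMM factors. At these depths 3 counts correspond to 0.171 to 0.589 CPM, so differences among members below that level were not detectable. Markers of the epiblast (7 genes, among them Pou5f1, Otx2 and Fgf5) summed to 1210 CPM or more in every sample, and none of them was at 0 in any group. Markers of 4 other cell types were summed by group. The 9 fibroblast genes summed to 225 to 271 CPM in AF, 32.0 to 56.1 CPM in AFX and 19.6 to 51.2 CPM in FS. The 12 visceral endoderm genes summed to 83.0 to 129 CPM in AF, 14.7 to 31.2 CPM in AFX and 7.84 to 15.5 CPM in FS, with Afp at 0 in all 3 cultured groups. In epiblasts the same visceral endoderm sum was 319 to 921 CPM at E5.0, 47.9 to 86.3 CPM at E5.5 and 26.6 to 35.2 CPM at E6.0. The 9 primitive streak genes summed to 152 to 586 CPM in AF, 67.0 to 145 CPM in AFX and 33.2 to 116 CPM in FS, the highest FS value belonging to line 1 passage 10. The 6 genes of extraembryonic ectoderm and trophoblast summed to 7.51 to 15.4 CPM in AF, 2.0 to 4.96 CPM in AFX and 1.21 to 3.92 CPM in FS, and to at most 4.72 CPM in epiblasts other than 1 E5.0 embryo at 21.4 CPM. In bulk samples, fewer cells of a type and less RNA per cell cannot be told apart.

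WNT proteins are lipid-modified by the acyltransferase Porcn and carried to the cell surface by Wls. They bind Frizzled receptors together with Lrp5 or Lrp6 to stabilise β-catenin, or with Ror2 to act without it. Antagonists of the Sfrp family, Frzb and Wif1 bind the ligands, whereas Dkk1, Dkk2 and Dkk4 bind Lrp5 and Lrp6. R-spondins act through Lgr4, Lgr5 and Lgr6 to protect Frizzled receptors from removal. In the mouse embryo Wnt3 is required for the primitive streak, and Dkk1, Sfrp5 and the inhibitor Cer1 are made by the anterior visceral endoderm that lies over the epiblast.

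Promoter sequences are shown for 4 members on which the results below turn: Sfrp5, Wnt11 and Fzd7, called in comparisons of cultures or embryos, and Dkk1, which carries 2 of the words searched. The RefSeq promoter table (GRCm38.p6; 250 bases before and 50 after each start) held 33 of the 51 members. It was searched on both strands for 4 words of the kind bound by TCF/LEF factors, the nuclear partners of β-catenin. Each word is CTTTG followed by AA, AT, TA or TT. Capitals mark these words or their reverse complements.
Sfrp5, chr19:42202253-42202402, minus strand, the 150 bases before the start: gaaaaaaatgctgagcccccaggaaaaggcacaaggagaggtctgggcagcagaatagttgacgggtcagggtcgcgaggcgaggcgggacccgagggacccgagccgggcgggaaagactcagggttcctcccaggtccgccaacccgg
Wnt11, chr7:98834962-98835111, plus strand, the 150 bases before the start: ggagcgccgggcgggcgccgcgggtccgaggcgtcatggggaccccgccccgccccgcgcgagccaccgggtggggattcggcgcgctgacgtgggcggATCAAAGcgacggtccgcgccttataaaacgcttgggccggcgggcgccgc
Fzd7, chr1:59481947-59482096, plus strand, bases 200 to 51 before the start: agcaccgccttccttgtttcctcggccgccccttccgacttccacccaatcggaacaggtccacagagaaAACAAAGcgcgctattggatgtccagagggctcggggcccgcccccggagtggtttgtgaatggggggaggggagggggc
Dkk1, chr19:30549587-30549616, minus strand, bases 120 to 91 before the RefSeq start, within the first Dkk1 exon of GENCODE M21: aagCTTTGAAatcccatcccggCTTTGTTg

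The Dkk1 words begin 117 and 98 bases before the RefSeq start, the Wnt11 word 51 bases and the Fzd7 word 130 bases before it. Wnt11 had 2 start windows in the table, of which only the printed one held a word. Of 3 windows of Wnt5b 1 held a word, 71 bases before that start, and Wnt3 held 1 word 18 bases after its start. The window of Sfrp5 held none. In all, 5 of the 33 members had a word (15.2%), beside 18.9% of the 27025 genes in the table, so these words were about as frequent in members as elsewhere. A match describes letters in this window and not a site of binding.

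The genes most often read were receptors and antagonists, not ligands. A member was called detected in a sample at 5 or more counts. By this measure 39 members were detected in every sample of at least 1 group, 9 in scattered samples only, and 3 (Wnt2, Wnt10a and Dkk4) in no sample. All 10 Frizzled genes and all 3 coreceptors were detected in a whole group, but only 10 of 19 ligands were. The scattered members were the ligands Wnt1, Wnt3a, Wnt6, Wnt8b, Wnt9b, Wnt10b and Wnt16 together with Rspo2 and Wif1, none of which had more than 33 counts in any sample. AF and AFX each had 34 members detected in every sample, FS and E6.0 had 26, E5.5 had 21 and E5.0 had 20, while 17 were detected in all 21 samples.

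**Figure D1:**
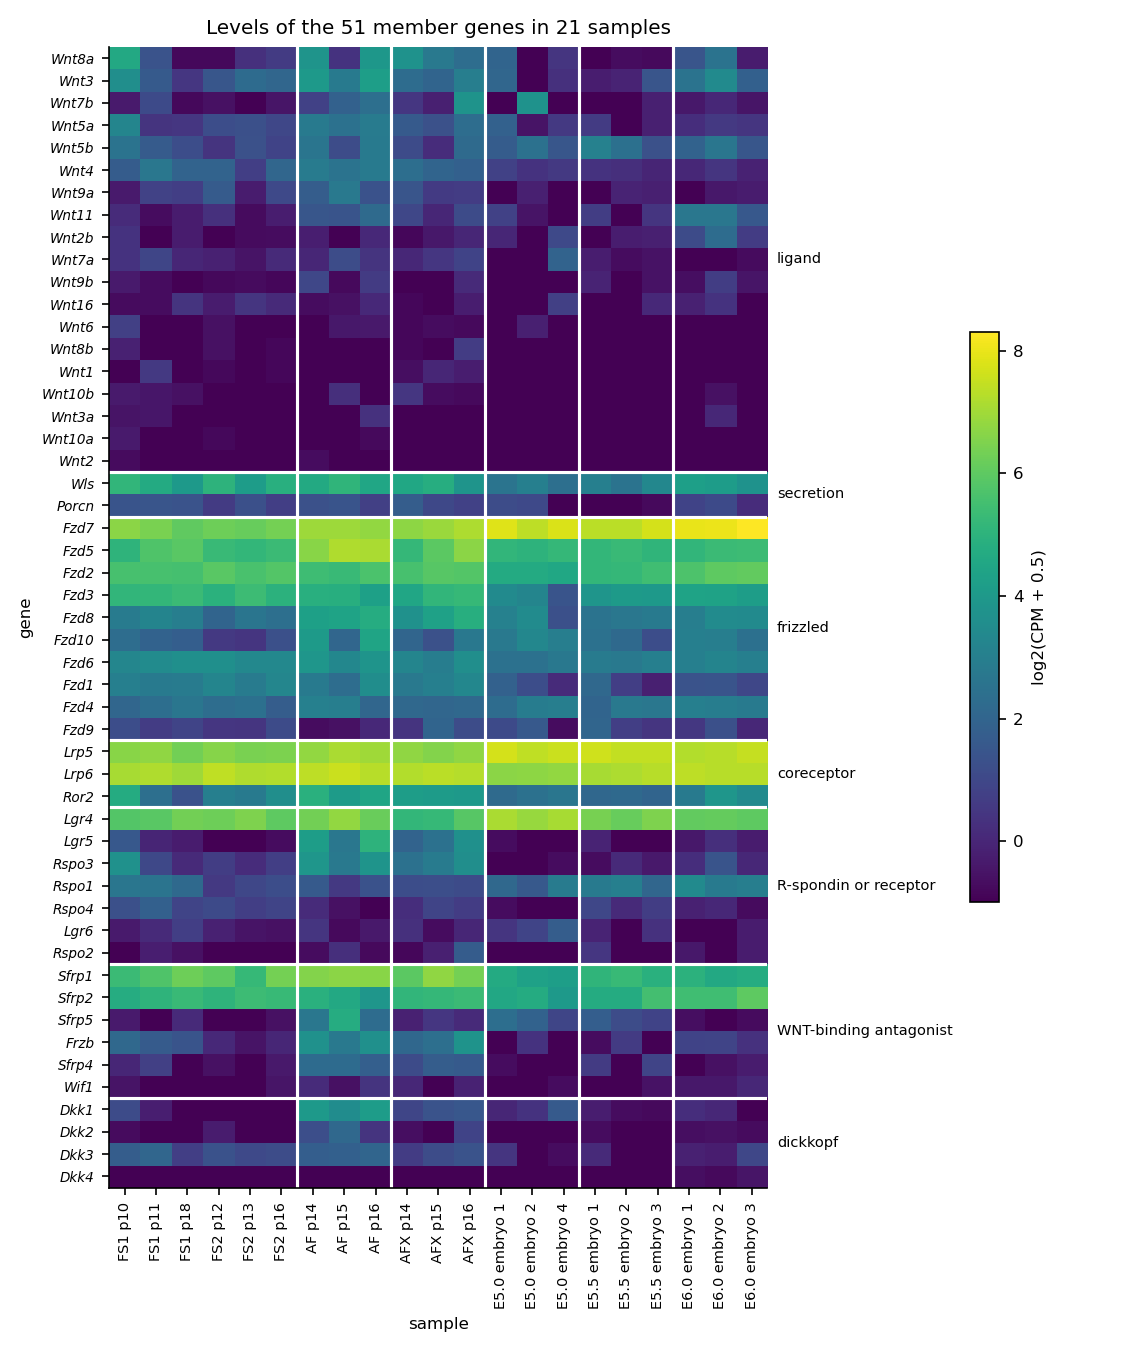
Levels of the 51 members (rows, grouped by role) in the 21 samples (columns, with white lines between groups), coloured by log2(CPM + 0.5). Most ligand rows are dark throughout, whereas Fzd7, Lrp5, Lrp6 and Lgr4 are bright in all 21 samples.

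Divided by exon length, the highest mean level in each of the 6 groups belonged to Fzd7: it was 17.7 CPM per kb in FS, 26.2 in AF, 27 in AFX, 45.3 in E5.0, 39.4 in E5.5 and 61.1 in E6.0. The next levels in FS were those of the antagonist Sfrp2 at 16.2, the receptor Fzd2 at 14 and the antagonist Sfrp1 at 13.4 CPM per kb. In FS line 2 alone Sfrp2, at 17.2, stood above Fzd7, at 16.7 CPM per kb. The highest ligand level in FS was 2.68 CPM per kb for Wnt8a, which came almost wholly from 1 sample, while Wnt3 was at 1.39 CPM per kb. Summed over all 19 ligands, the level was 21.5 ± 18.5 CPM in FS (SD, n = 6), or 14.1 ± 3.88 (SD, n = 5) without line 1 p10, which held 58.6 CPM, a sample left out after the data were seen. The sum was 53.1 ± 17.3 in AF, 32.1 ± 12.1 in AFX, 15.9 ± 3.98 in E5.0, 9.07 ± 2.65 in E5.5 and 23.0 ± 13.1 in E6.0 (SD, n = 3 each).

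FS and AF cells set the formative state against conventional epiblast stem cells. Of the 37 members tested, 16 passed edgeR's quasi-likelihood test at a Benjamini-Hochberg adjusted p of 0.05, beside 19.5% of all 16052 genes tested. In FS cells 13 of these were lower and 3 higher, where 10.6% and 8.86% of all genes were. The antagonists Sfrp5, Sfrp4, Frzb, Sfrp1, Dkk1 and Dkk2, the R-spondin receptor Lgr5 and the receptors Fzd5, Fzd7, Fzd8 and Fzd10 were among those lower in FS. The median log2 difference over the members tested was -0.88, against 0.0171 over all genes.

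Among secreted antagonists, Dkk1 (chr19:30545863-30549665, GRCm38, minus strand) was at 15.4, 11 and 17 CPM in the AF samples. In FS its lowest and median values were 0 and its highest was 1.69 CPM. All 3 AF samples thus lay above all 6 FS samples, with a log2 difference of -5.53 ± 0.87 (SE; adjusted p = 0.00085). FS line 1 p10 held 17 of its 20 FS counts, and without that sample 433 AF counts stood against 3, a 287-fold ratio (95% exact interval 97.7 to 1400, counting error only; adjusted p = 3.85e-06). Sfrp5 (chr19:42197971-42202252, minus strand) was at 5.92, 26.8 and 4.36 CPM in AF, with passage 15 the highest. Its FS values ran from 0 through a median of 0.0853 to 0.570 CPM, a log2 difference of -6.01 ± 0.75 (adjusted p = 0.000113), which was -4.75 without AF p15 and -6.80 without FS line 1 p18. Frzb stood at 12.7, 6.33 and 12.4 CPM in AF and at 0.211 to 3.97 CPM in FS, with a median of 1.38 CPM (log2 difference -2.66 ± 0.66, adjusted p = 0.0132). These 3 genes, picked from those called, did not overlap between FS and AF, and among all members tested 15 of 37 did not, beside 21.2% of all genes tested.

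Sfrp4 and Dkk2 were low genes that nonetheless separated: Sfrp4 averaged 0.354 CPM in FS and 3.89 in AF (adjusted p = 0.00195), and Dkk2 averaged 0.0701 and 2.18 CPM (adjusted p = 0.00415). The log2 difference of Sfrp4 was -3.53, and -4.29 without FS line 1 p11. Dkk2 held 5 counts in FS, of which 4 in line 2 p12, and its log2 difference of -4.75 was -4.03 without AF p15. Without FS line 2 p12 there were 68 AF counts of Dkk2 against 1 in FS, a 130-fold ratio (exact interval 22.6 to 5210). Sfrp1 (chr8:23411502-23449632, plus strand), abundant in both, was at 94.3, 102 and 100 CPM in AF against a lowest, median and highest of 37.1, 58.2 and 81.9 CPM in FS. Its log2 difference was -0.76 ± 0.23 (adjusted p = 0.0355). That call was lost without any 1 of AF p14, p15 or p16, FS line 1 p10 or p11, with adjusted p from 0.0514 to 0.109, with line 2 alone (0.0642) and with no filter (0.101). Sfrp2, of the same family, moved the other way, at 29.6, 24.3 and 14.5 CPM in AF and 26.8, 35.1 and 41.0 CPM (lowest, median, highest) in FS, and the groups overlapped. Its log2 difference was 0.61 ± 0.19 (adjusted p = 0.0377), and was not called without AF p15 or p16, FS line 1 p18, or FS line 2 p13 or p16 (adjusted p 0.0582 to 0.183), with line 1 alone (0.165) or with only FS and AF fitted (0.0617). Exons of a gene on the opposite strand cover 16.1% of the exon bases of Sfrp2, and whether counting used strand is not given in the sources used here, so its count is uncertain.

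Among receptors, Fzd5 (chr1:64730558-64737751, minus strand) was at 101, 145 and 139 CPM in AF and at 33.0, 39.4 and 60.4 CPM (lowest, median, highest) in FS. The groups did not overlap and the log2 difference was -1.57 ± 0.27 (adjusted p = 0.00149). An opposite-strand gene overlaps 17.8% of its exon bases. Fzd8 was at 19.1, 20.5 and 26.7 CPM in AF, above the 3.45, 6.22 and 8.74 CPM of FS (log2 difference -1.87 ± 0.27, adjusted p = 0.000275). Fzd7 (chr1:59482424-59486955, plus strand) was at 123, 123 and 111 CPM in AF and at 64.7, 78.6 and 102 CPM in FS, a smaller log2 difference of -0.58 ± 0.14 (adjusted p = 0.00756). With line 1 alone as FS the Fzd7 call was lost (adjusted p = 0.0662). Fzd10 was at 16.5, 3.69 and 21.1 CPM in AF, and its passage 15 value lay within the FS range of 0.844 to 4.57 CPM (adjusted p = 0.00608). Fzd9, a low gene, was higher in FS, at a mean of 1.28 against 0.285 CPM (log2 difference 2.08, adjusted p = 0.0320, and 2.96 without AF p16). The Fzd9 call was lost without AF p14 or p15, FS line 1 p10 or FS line 2 p16, with adjusted p from 0.0532 to 0.116, and with either line alone (0.0645 for line 1 and 0.0865 for line 2). The other 5 Frizzled genes (Fzd1, Fzd2, Fzd3, Fzd4 and Fzd6) did not pass the test.

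Lgr5 (chr10:115450311-115587780, minus strand), an R-spondin receptor and itself a known β-catenin target, was at 17.5, 5.98 and 31.8 CPM in AF. In FS it ran from 0 through 0.220 to 2.48 CPM, below every AF sample (log2 difference -5.11 ± 0.92, adjusted p = 0.0026). FS line 1 p10 held 25 of the 35 FS counts, and the difference was -6.70 without it and -4.45 without AF p16, and passed in both cases. Rspo4 was higher in FS, at a mean of 1.75 against 0.264 CPM (log2 difference 2.77, adjusted p = 0.0125), with a difference of 4.10 without AF p14 and 2.15 without AF p16. The coreceptor Lrp5 was at 110, 138 and 125 CPM in AF and 80.4, 92.7 and 107 CPM in FS (log2 difference -0.42 ± 0.11, adjusted p = 0.0147), a call lost without AF p15 (adjusted p = 0.0620) or with line 1 alone (0.0985). Lrp6, Ror2, Lgr4 and both secretion genes did not pass.

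Only 1 of 9 ligands tested passed. Wnt11 was at 2.34, 2.20 and 4.17 CPM in AF and at 0.105, 0.333 and 0.723 CPM (lowest, median, highest) in FS (log2 difference -2.92 ± 0.52, adjusted p = 0.00121). An opposite-strand gene overlaps 8.80% of the Wnt11 exon bases. Wnt3, at 15.7, 6.42 and 18.1 CPM in AF and 0.896, 3.18 and 11.7 CPM in FS, did not pass (log2 difference -1.67 ± 0.57, adjusted p = 0.0594), although it did without FS line 1 p10 (adjusted p = 0.0025) or without AF p15 (adjusted p = 0.0489), with line 2 alone (0.00586) and with DESeq2 (0.0168).

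**Figure D2:**
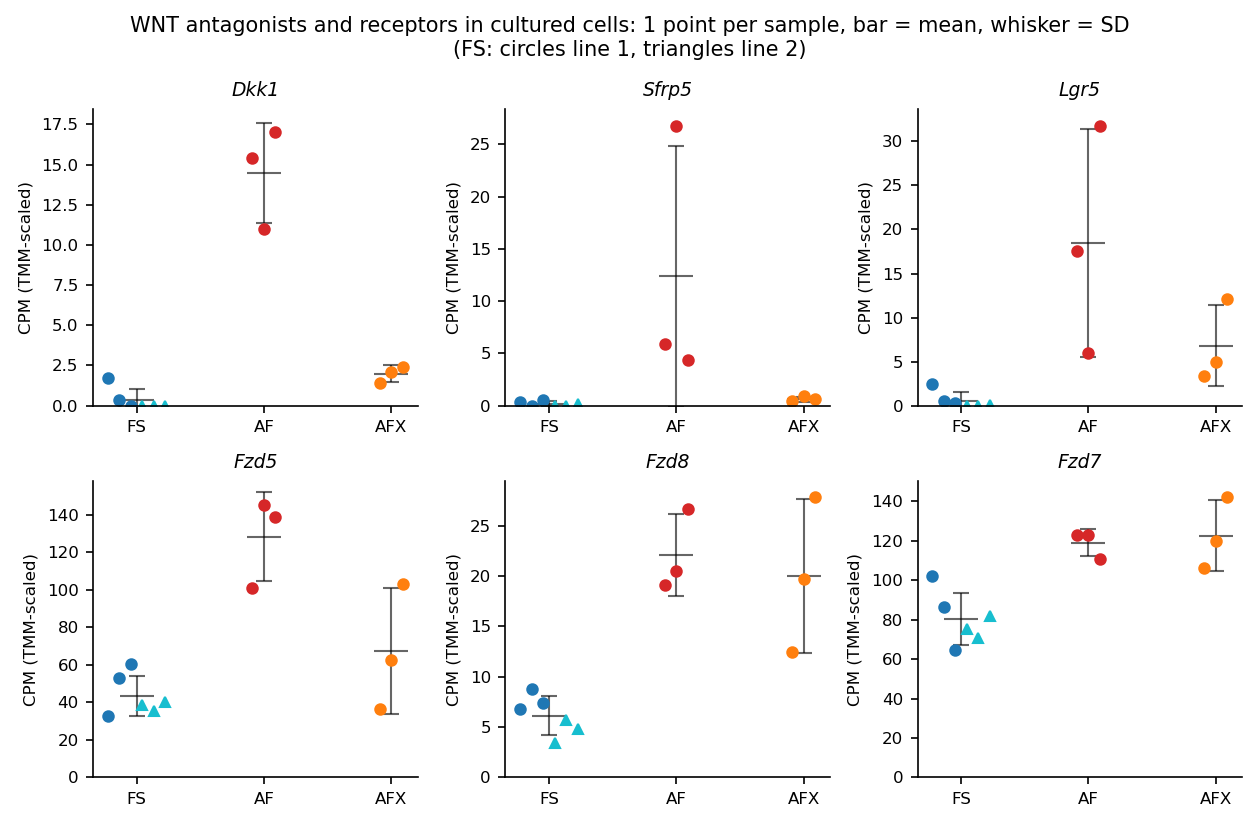
CPM (vertical axes, from 0) of 6 members in FS, AF and AFX cells, 1 point per sample, with bars for means and whiskers for SD, cut at 0. Dkk1 at 11 to 17 CPM in AF lies above every FS and AFX sample, the Fzd5 values of 101 to 145 CPM in AF meet the highest AFX value of 103 CPM, and Fzd8 and Fzd7 are high in both AF and AFX.

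Markers moved with the same comparison. In FS against AF, 7 of 8 fibroblast genes tested, 5 of 5 visceral endoderm genes and 5 of 8 primitive streak genes were lower in FS, as was 1 of 2 trophoblast genes (Gata3), and their part in the member differences was not tested. Of 61 pathway genes outside the members, 55 were tested, with 6 higher and 8 lower in FS. By list, 5 of 14 further surface or secreted regulators passed, 3 of 22 signal transduction genes, 2 of 9 TCF/LEF factors and feedback targets and 4 of 10 planar polarity genes. Cer1, a secreted inhibitor of NODAL and BMP, was at 210, 209 and 258 CPM in AF and averaged 2 CPM in FS (log2 difference -6.87 ± 1.07, adjusted p = 0.00189, and -7.81 without FS line 1 p10). Trabd2b, a membrane protease that inactivates WNT proteins, had a log2 difference of -2.42 (adjusted p = 8.7e-05), and the polarity gene Vangl1 one of -1.48 (adjusted p = 0.000324). The log2 difference of Apc2, a component of β-catenin turnover, was 2.32 (adjusted p = 2.88e-05), and those of the polarity cadherins Celsr3 and Celsr2 were 1.38 and 1.17.

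Of the 6 FS samples, line 1 passage 10 stood apart in ligands and in Lgr5. Wnt8a was at 24.0 CPM there and at 0.0803 to 2.13 CPM in the other 5. Rspo3, a secreted R-spondin, was at 12.6 CPM against 0.570 to 1.53 CPM, and Wnt5a, a ligand best known for acting without β-catenin, was at 9.03 CPM against 0.826 to 1.90 CPM. Wnt3 was at 11.7 CPM in that sample and at most 4.32 CPM in the others. The primitive streak gene T was at 30.5 CPM in it and at 0 to 3.42 CPM elsewhere in FS, and the part of such markers was not tested.

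**Figure D3:**
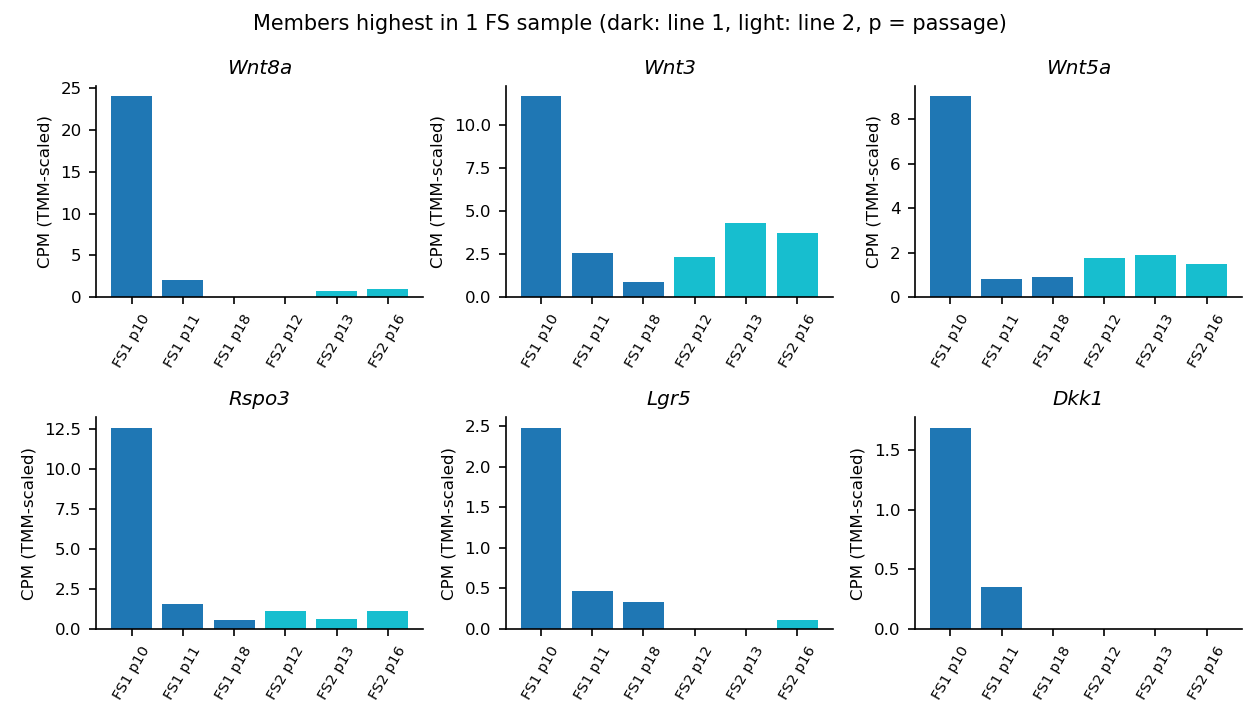
CPM of 6 members in the 6 FS samples, 1 bar per sample from 0, dark for line 1 and light for line 2. The first bar, line 1 passage 10, is the highest in all 6 panels, at 24.0 CPM for Wnt8a and 12.6 CPM for Rspo3.

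Without that sample 19 members passed in FS against AF, beside 18.3% of all genes in that fit, with Wnt3, Wnt5a, Wnt8a, Rspo3 and Ror2 entering on the lower side. The log2 difference of Rspo3 went from -1.98 to -3.51 (adjusted p = 0.132 with the sample and 5.01e-05 without it), and that of Wnt8a from -1.08 to -3.65 (0.648 and 0.0202). For Wnt5a it went from -1.24 to -2.17 (0.181 and 0.000794), and for Ror2 from -1.21 to -1.79 (0.157 and 0.0055). Rspo3 and Wnt5a share 13.1% and 4.58% of their exon bases with an opposite-strand gene.

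The comparison of FS with AFX cells sets formative cells beside epiblast stem cells in a medium whose name also holds an X. FS and AFX gave fewer calls: 4 of 37 members passed, beside 8.70% of all genes. All 4 were lower in FS, as were 4.92% of all genes, and none was higher, where 3.78% of all genes were. This comparison shares its FS samples with the one against AF. The 4 were Lgr5, Sfrp4, Fzd8 and Fzd7. Among all members tested 4 of 37 did not overlap between FS and AFX, beside 15.1% of all genes tested. Fzd8 was at 12.5, 19.7 and 27.8 CPM in AFX, all above the highest FS value of 8.74 CPM (log2 difference -1.72 ± 0.27, adjusted p = 0.00103), and no left-out sample ended this call. Fzd7 was at 106, 120 and 142 CPM in AFX and at most 102 CPM in FS (log2 difference -0.62 ± 0.14, adjusted p = 0.00983), a call lost without AFX p16 (adjusted p = 0.0750) or with FS line 1 alone (0.0854).

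Lgr5 was at 3.35, 5.00 and 12.1 CPM in AFX and at most 2.48 CPM in FS (log2 difference -3.68 ± 0.93, adjusted p = 0.0319). The call was lost without AFX p15 or p16, or without any FS sample other than line 1 p10, with adjusted p from 0.0516 to 0.161, with FS line 1 alone (0.114) and with no filter (0.0910). The difference was -5.27 without line 1 p10 and -2.95 without AFX p16. Sfrp4 averaged 2.38 CPM in AFX and 0.354 CPM in FS (log2 difference -2.81 ± 0.69, adjusted p = 0.0188; -3.56 without FS line 1 p11), and was not called without AFX p15 (0.0737), without AFX p16 (0.0667) or with FS line 1 alone (0.120). Dkk1, at 1.41, 2.12 and 2.41 CPM in AFX, did not pass (log2 difference -2.66 ± 0.95, adjusted p = 0.112). Its FS values reached 1.69 CPM only in line 1 p10, and without that sample 67 AFX counts stood against 3 in FS, a 38.5-fold ratio (exact interval 12.6 to 191), and the test passed (adjusted p = 0.000655). It also passed with line 2 alone (0.000268) and with the lines as separate groups (0.00762). Fzd5, at 36.5, 62.4 and 103 CPM in AFX, overlapped FS and did not pass (adjusted p = 0.195), except without AFX p14 (0.0342).

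Without FS line 1 p10, 10 members passed against AFX in place of 4, beside 8.68% of all genes in that fit. The additions were Dkk1, Frzb, Ror2, Rspo3 and Wnt8a, lower in FS, and Lgr4, higher in FS. With FS line 2 alone Frzb, Ror2, Rspo3 and Wnt8a also passed (0.00147, 0.0289, 0.0014 and 0.0313), and Frzb did so with the lines as separate groups (0.000596) and with DESeq2 (0.0152). Without FS line 1 p10 Rspo3 differed by -2.98 in place of -1.45 (adjusted p = 0.000356 and 0.355), and Lgr4 by 0.73 in place of 0.68 (0.0381 and 0.0518). Lgr4 also passed without FS line 1 p11 (0.0495) or AFX p16 (0.0163), with line 2 alone (0.0468), with the lines as separate groups (0.0411), with only FS and AFX fitted (0.0476) and with DESeq2 (0.0143). Leaving out AFX p16 reduced the count to 2 of 38, beside 4.97% of all genes in that fit. Of the markers, 2 of 8 fibroblast genes and 1 of 5 visceral endoderm genes tested were lower in FS. No epiblast, primitive streak or trophoblast gene passed, and the part of the markers was not tested. Among pathway genes, 2 of 55 were higher in FS and 5 lower. Btrc and Ctnnbip1 were higher by 0.62 and 0.59, and Vangl1, Cby1 and Tcf7l2 were lower by 0.89, 0.73 and 0.70 in size. Each of these 5 calls was lost without 2 or more single samples: Btrc without any AFX sample or FS line 2 sample (adjusted p 0.0618 to 0.108), Ctnnbip1 without AFX p14 or p15 or FS line 2 p16 (0.0510 to 0.129), Vangl1 without AFX p15 or p16 (0.0937 and 0.139), Cby1 without AFX p14 or p15 (0.0705 and 0.0594), and Tcf7l2 without AFX p15 or p16 or any FS sample (0.0596 to 0.404). With FS line 1 alone Btrc, Ctnnbip1, Cby1 and Tcf7l2 were not called either (0.238, 0.152, 0.101 and 0.155), nor was Tcf7l2 with line 2 alone (0.127) or with only FS and AFX fitted (0.0504).

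AFX and AF cells share line and passage numbers in their titles and differ in medium. Of 37 members 3 passed, beside 8.73% of all genes: Sfrp5 and Lgr4 were lower in AFX and Fzd9 higher, where 4.42% of all genes were lower and 4.30% higher. This comparison shares its samples with the preceding ones. Among all members tested 12 of 37 did not overlap between AFX and AF, beside 26.7% of all genes tested. Sfrp5 was at 0.402, 0.875 and 0.582 CPM in AFX and at 4.36 to 26.8 CPM in AF, with no overlap (log2 difference -4.36 ± 0.87, adjusted p = 0.00807, and -3.08 without AF p15). Lgr4 (chr2:109917647-110014257, plus strand) was at 35.6, 36.7 and 59.0 CPM in AFX and at 79.2, 111 and 72.5 CPM in AF (log2 difference -1 ± 0.23, adjusted p = 0.0140). The Lgr4 call was lost without AF p15, AFX p14 or AFX p15 (0.0537 to 0.0698), and with passage number as a block (0.0535). Fzd9 averaged 2.02 CPM in AFX and 0.285 CPM in AF (log2 difference 2.70 ± 0.69, adjusted p = 0.0239), and its call was lost without AF p14, AF p15 or AFX p15 (0.0804 to 0.119). The Fzd9 difference was 3.58 without AF p16 and 2.07 without AFX p15.

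Several members with lower AFX values did not pass. Dkk1 at 1.41 to 2.41 CPM in AFX and 11 to 17 CPM in AF did not overlap, yet its log2 difference of -2.87 ± 0.94 had an adjusted p of 0.0844. With only the 6 AF and AFX samples in the fit it passed (adjusted p = 0.00156), as it did with the 2 FS lines as separate groups (0.0134). Fzd10 (log2 difference -1.80 ± 0.67, adjusted p = 0.124), Fzd5 (-0.94 ± 0.33, 0.103) and Lgr5 (-1.43 ± 0.95, 0.441) did not pass either. Fzd10 passed without AF p15 (0.0364), with DESeq2 (0.0397) and with the FS lines as separate groups (0.0497), and Fzd5 without AFX p16 (0.0152) and with DESeq2 (0.0253). With passage number as a block Dkk1, Fzd10 and Fzd5 passed (0.00412, 0.0265 and 0.0309). In the same comparison 6 of 8 fibroblast genes were lower in AFX and 1 higher, 4 of 5 visceral endoderm genes and 1 of 2 trophoblast genes (Gata3) were lower, and their part was not tested. Of 55 pathway genes 5 were higher in AFX, among them Apc2 by 1.62, Cby1 by 1.27 and Celsr2 by 1.08. Daam1, a formin of the polarity pathway, alone was lower, by 1 in size (adjusted p = 0.0176), a call lost without AF p15, AFX p14 or AFX p15 (0.0598 to 0.0722).

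Between the FS lines 2 of 37 members passed, beside 3.85% of all genes, and both were lower in line 2, where 1.20% of all genes were lower and 2.65% higher. Frzb was at 3.97, 2.72 and 2.20 CPM in line 1 and at 0.562, 0.211 and 0.512 CPM in line 2 (log2 difference -2.71 ± 0.58, adjusted p = 0.0162). Rspo1 was at 5.86, 5.43 and 4.07 CPM in line 1 and at 0.964, 1.48 and 1.82 CPM in line 2 (log2 difference -1.85 ± 0.39, adjusted p = 0.0158). Without line 1 p10 neither was called (0.0572 and 0.0557). Frzb was also lost without line 2 p13 or p16 (at most 0.0711), and Rspo1 without line 1 p11 or line 2 p12 or p13 (at most 0.0809). The 2 lines did not overlap in either gene, nor in 8 of the 37 members tested or 27.3% of all genes. Of 55 pathway genes none passed between the lines in edgeR's test. At an unadjusted p under 0.05 there were 10, and the share of all genes at that threshold is not given here. Other settings called some of the pathway genes, each lower in line 2 except Tnks2. Draxin and Tnks2 passed with DESeq2 (0.00903 and 0.0068), Draxin with only the 2 lines fitted (0.0144), Sp5 and Sp8 without line 1 p18 (0.0477 and 0.0301), and Cer1, Draxin, Ror1, Sp5 and Sp8 with no filter (at most 0.0123).

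The epiblast stages trace the same genes over the days before gastrulation. From E5.0 to E5.5, 3 of 25 members passed, beside 6.82% of all 14228 genes tested. Lrp6 and Fzd2 rose and Lgr4 fell, where 3.07% of all genes rose and 3.75% fell. Lgr4 was at 138, 117 and 136 CPM at E5.0 and at 83.1, 70.7 and 91.0 CPM at E5.5, with no overlap (log2 difference -0.69 ± 0.12, adjusted p = 0.00603). Among all members tested 8 of 25 did not overlap between E5.0 and E5.5, beside 24.1% of all genes tested. Lrp6 (chr6:134446476-134566965, minus strand) was at 103, 104 and 112 CPM and then at 137, 141 and 157 CPM (log2 difference 0.43 ± 0.10, adjusted p = 0.0222), a call lost without E5.5 embryo 2 (0.0626) or 3 (0.0766). Fzd2 (chr11:102604396-102608058, plus strand) was at 25.0, 25.1 and 22.7 CPM and then at 34.9, 36.1 and 43.1 CPM (log2 difference 0.64 ± 0.16, adjusted p = 0.0329), a call lost without E5.0 embryo 4 or any E5.5 embryo (0.0621 to 0.109). With E5.0 and E5.5 alone in the fit Lrp6 and Fzd2 were not called (0.0689 and 0.104), leaving Lgr4. Of 10 visceral endoderm genes tested 8 were lower at E5.5, with a median log2 difference of -2.35, and their part in these differences was not tested.

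From E5.5 to E6.0, 4 of 25 members passed, beside 4.43% of all genes. Fzd7, Fzd2 and Ror2 rose and Sfrp5 fell, where 1.89% of all genes rose and 2.54% fell. The stage comparisons share their samples. Fzd7 was at 163, 163 and 209 CPM at E5.5 and at 253, 262 and 316 CPM at E6.0 (log2 difference 0.63 ± 0.14, adjusted p = 0.0199). Fzd2 reached 52.0, 64.0 and 67.0 CPM (log2 difference 0.68 ± 0.16, adjusted p = 0.0278). Both calls were lost without E5.5 embryo 1 or 2 or E6.0 embryo 2 or 3, with adjusted p of 0.0534 to 0.103 for Fzd7 and 0.104 to 0.146 for Fzd2. The WNT5A receptor Ror2 was at 3.84, 4.01 and 3.45 CPM at E5.5 and at 6.43, 14.4 and 10.4 CPM at E6.0 (log2 difference 1.46 ± 0.37, adjusted p = 0.0392), a call lost without any sample of the 6 other than E6.0 embryo 1 (0.106 to 0.269). These 3 genes, picked from those called, did not overlap between E5.5 and E6.0, and among all members tested 14 of 25 did not, beside 30.7% of all genes.

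Sfrp5 was at 4.59, 3.34 and 1.44 CPM at E5.0, at 2.94, 1.72 and 1.31 CPM at E5.5, and at 0.131, 0 and 0.106 CPM at E6.0. The last values are 2 counts in all, against 55 at E5.5 and 66 at E5.0. Summed over samples, Sfrp5 was 27.8-fold higher at E5.5 than at E6.0 (95% exact interval 7.33 to 235, counting error only) and 43.9-fold higher at E5.0 (11.7 to 370). The fitted fall from E5.5 passed the test (adjusted p = 0.0204), but not without E5.5 embryo 1 or 2 or any 1 of the E6.0 embryos (0.0518 to 0.111). The fall from E5.0 passed with each sample left out in turn (adjusted p = 0.00233 with all samples). Visceral endoderm, a known source of Sfrp5, had a marker sum of 319 to 921 CPM at E5.0 and 26.6 to 35.2 CPM at E6.0, and its part in the Sfrp5 difference was not tested.

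**Figure D4:**
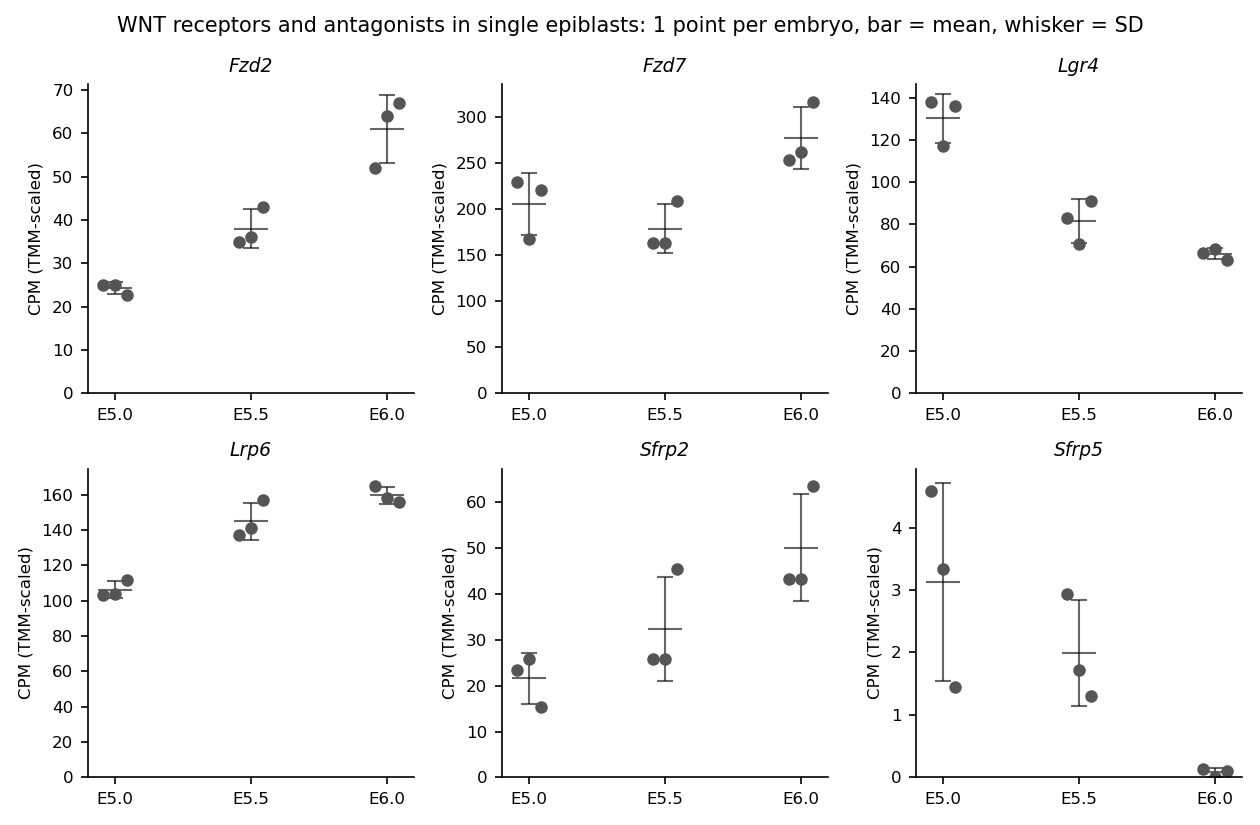
CPM (vertical axes, from 0) of 6 members in single epiblasts at E5.0, E5.5 and E6.0, 1 point per embryo, with bars for means and whiskers for SD. Fzd2 runs from 22.7 to 25.1 CPM at E5.0 up to 52.0 to 67.0 CPM at E6.0, whereas Sfrp5 ends at 0 to 0.131 CPM.

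Across the whole span from E5.0 to E6.0, 8 of 25 members passed, beside 21.8% of all genes. Of these 6 rose and 2, Lgr4 and Sfrp5, fell, where 10.2% and 11.6% of all genes did. Fzd2 rose by 1.32 ± 0.16 on the log2 scale (adjusted p = 8.47e-05), Lrp6 by 0.56 ± 0.10 (0.00125) and Sfrp2 by 1.20 ± 0.27 (0.00585). Sfrp2 was at 23.5, 25.9 and 15.3 CPM at E5.0 and at 43.3, 43.3 and 63.5 CPM at E6.0. Wls, the carrier of WNT proteins, was at 5.46, 7.65 and 4.8 CPM and then at 18.5, 17.1 and 13 CPM (log2 difference 1.43 ± 0.32, adjusted p = 0.00614). The Wls call was lost with embryo number as a block (0.0513). Fzd3 rose by 1.42 ± 0.41 (adjusted p = 0.0240), a call lost without E6.0 embryo 1 (0.0669) or 2 (0.0692), or with only E5.0 and E6.0 fitted (0.0620). E5.0 embryo 4 held 2.16 CPM of Fzd3, where the other 2 E5.0 embryos held 10.4 and 9.03 CPM. Fzd7 rose by 0.41 ± 0.14 (adjusted p = 0.0482), lost without E5.0 embryo 2 or 4 or any E6.0 embryo (0.0502 to 0.187), and also with only E5.0 and E6.0 fitted (0.0694) or genes of at least 5 CPM tested (0.0529). Lgr4 fell by 1 on the log2 scale (adjusted p = 8.27e-05) to 66.4, 68.5 and 63.3 CPM. Visceral endoderm markers fell over the same span in 8 of 10 cases, and their part was not tested.

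Ligands were low in the epiblast, and none of the 5 tested passed in any stage comparison by edgeR, while DESeq2 called 1 in each. At an unadjusted p under 0.05 there were 1 from E5.0 to E5.5, 4 from E5.5 to E6.0 and 1 across the span. The share of all genes at that threshold is not given here, so no excess among ligands can be read from these counts. Wnt3 was at 3.72, 0 and 0.719 CPM at E5.0, at 0.339, 0.458 and 2.24 CPM at E5.5 and at 5.38, 10.5 and 3.09 CPM at E6.0. All 3 E6.0 embryos exceeded all E5.5 embryos, but the log2 difference of 2.60 ± 1.00 had an adjusted p of 0.177, and passed with no filter (0.00508) or with only these groups fitted (0.0347). That against E5.0 was 2.01 ± 0.98 (adjusted p = 0.167) and passed without E5.0 embryo 1 (0.0254) or with no filter (0.0191). Wnt11 was at 5.91, 5.89 and 2.45 CPM at E6.0 and at most 1.24 CPM at both earlier stages (adjusted p = 0.159 against E5.5 and 0.0535 against E5.0). The former passed with no filter (0.0231) or with only these groups fitted (0.0335). The latter passed without E5.0 embryo 1 (0.0154), with DESeq2 (0.0155), with no filter (0.00306) and with only these groups fitted (0.0430). Wnt8a was at 2.23, 5.37 and 0.319 CPM at E6.0 and at 0, 0.115 and 0.0933 CPM at E5.5, which is 82 counts against 2 (40.6-fold, exact interval 10.9 to 341, adjusted p = 0.0744). This Wnt8a difference passed with DESeq2 (0.0167) and with no filter (0.00182). From E5.0 to E5.5 Wnt8a, with an adjusted p of 0.111, passed with DESeq2 (0.0499), with no filter (0.0139) and without E5.0 embryo 2 (0.0416). Porcn held 1 count over the 3 E5.5 embryos, 35 at E6.0 and 22 at E5.0, and did not pass against either (adjusted p = 0.104 and 0.0945). It passed between E5.5 and E5.0 without E5.0 embryo 4 (0.0360) and with DESeq2 (0.0482). The primitive streak genes summed to 23.2 to 50.3 CPM at E5.5 and 80.6 to 255 CPM at E6.0.

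Among 53 pathway genes tested in epiblasts, 6 passed from E5.0 to E5.5, 3 from E5.5 to E6.0 and 14 across the span, where 13 were higher at E6.0. Lef1, a TCF/LEF factor, was at 297, 346 and 339 CPM at E5.0 and at 122, 113 and 129 CPM at E5.5 (log2 difference -1.44 ± 0.10, adjusted p = 2.29e-05). Axin2, a standard feedback target of β-catenin, was at 73.6, 77.5 and 87.3 CPM and then at 35.7, 23.4 and 36.0 CPM (log2 difference -1.34 ± 0.27, adjusted p = 0.0126), a call lost without E5.5 embryo 2 (0.0582) and with embryo number as a block (0.168). Both genes were lower in all 3 E5.5 embryos than in any E5.0 embryo, in a comparison where 24.1% of all genes did not overlap, and the part of the visceral endoderm markers, also lower at E5.5, was not tested. At E6.0 Lef1 stayed at 111 to 124 CPM, while Axin2 was at 53.7, 70.0 and 29.7 CPM. Of the polarity genes, Celsr3 rose by 1.69 and Celsr2 by 0.85 from E5.0 to E5.5, and Prickle1 rose by 2.22 ± 0.21 from E5.5 to E6.0 (adjusted p = 2.6e-05). Gsk3b and Csnk1a1, kinases that mark β-catenin for removal, rose by 0.59 and 0.42 from E5.5 to E6.0. The Gsk3b call was lost without E5.5 embryo 2 or E6.0 embryo 1 or 2 (0.0614 to 0.0671). The Csnk1a1 call was lost without E5.5 embryo 2 or 3 or E6.0 embryo 1 or 3 (0.0569 to 0.0707). The rise of Csnk1e by 0.79 from E5.0 to E5.5 was lost without E5.0 embryo 1 or E5.5 embryo 2 or 3 (0.0593 to 0.0828).

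FS cells were set beside the E5.5 epiblast, the nearest embryonic stage by the aim of such cultures. Of 39 members 15 passed, 12 higher and 3 lower in FS, beside 43.8% of the 16614 genes tested, so members were not called more often than genes in general. Of all genes 23.0% were higher and 20.8% lower. Both secretion genes were higher in FS: Wls (chr3:159839672-159938664, plus strand) was at 7.57, 5.39 and 9.42 CPM at E5.5 and at 15.4, 27.1 and 34.0 CPM (lowest, median, highest) in FS, with no overlap (log2 difference 1.76 ± 0.29, adjusted p = 3.7e-05). Porcn held 118 counts in FS and 1 at E5.5, a 47.5-fold ratio (exact interval 8.36 to 1890), and passed the test (adjusted p = 0.000357). Of the ligands Wnt4 averaged 3.42 CPM in FS and 0.648 CPM at E5.5 (adjusted p = 0.000337). Wnt5a also passed (log2 difference 2.48 ± 0.88, adjusted p = 0.0258), but not without FS line 1 p10, E5.5 embryo 2 or E5.5 embryo 3 (0.0908 to 0.113), nor with line 2 alone (0.0651). The Wnt5a difference was 1.55 without FS line 1 p10, and 3.64 and 1.90 without E5.5 embryos 1 and 2.

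Receptors differed in both directions. Fzd3 (chr14:65192449-65262463, minus strand) was at 13.9, 16.4 and 15.9 CPM at E5.5 and at 30.6, 34.7 and 41.3 CPM in FS (log2 difference 1.20 ± 0.28, adjusted p = 0.00139). Fzd1 was at 3.95, 1.15 and 0.373 CPM at E5.5 and at 6.61, 7.24 and 9.10 CPM in FS (log2 difference 2.08 ± 0.51, adjusted p = 0.00224, and 3.35 without E5.5 embryo 1). Fzd7 was lower in FS, at 64.7 to 102 CPM against 163 to 209 CPM (log2 difference -1.15 ± 0.13, adjusted p = 5e-07). Lrp5 (chr19:3584828-3686564, minus strand) was likewise lower, at 80.4 to 107 CPM against 198, 175 and 176 CPM (log2 difference -0.97 ± 0.10, adjusted p = 1.61e-07). These 4 genes, picked from those called, did not overlap between FS and E5.5, and among all members tested 11 of 39 did not, beside 40.9% of all genes. Fzd2 (0.43, adjusted p = 0.0077) and Fzd6 (0.60, 0.0237) were higher in FS, but Fzd2 was not called without E5.5 embryo 2 (0.0723) or with line 1 alone (0.0820). Fzd6 was not called without E5.5 embryo 1 or 2 (0.0651 and 0.122), with line 1 or line 2 alone (0.0675 and 0.0733) or with no filter (0.105). Ror2 (1.38, 0.0425) was lost without FS line 1 p10, FS line 2 p16 or any E5.5 embryo (0.0665 to 0.126), with line 1 alone (0.0630) and with no filter (0.109). An opposite-strand gene overlaps 3.15% of the Fzd6 exon bases.

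Among antagonists Sfrp1 was at 33.4, 37.7 and 29.5 CPM at E5.5 and at 37.1, 58.2 and 81.9 CPM in FS, with a slight overlap (log2 difference 0.81 ± 0.22, adjusted p = 0.00493). Dkk3, the divergent Dickkopf, averaged 2.17 CPM in FS and 0.188 CPM at E5.5 (adjusted p = 0.00329), where all 5 of its E5.5 counts lay in embryo 1. Its log2 difference of 3.49 was 2.88 without E5.5 embryo 3 and 7.48 without embryo 1, when no E5.5 count remained. Sfrp5 had a log2 difference of -3.36 ± 0.75 (adjusted p = 0.000977; -4.13 without FS line 1 p18), at most 0.570 CPM against 1.31 to 2.94 CPM. Rspo3 was higher in FS (log2 difference 3.13, adjusted p = 0.0214), but not without FS line 1 p10 or E5.5 embryo 1 or 3 (0.0521 to 0.0868), with line 2 alone (0.0785) or with no filter (0.0665). Its difference was 1.61 without FS line 1 p10 and 3.72 without E5.5 embryo 2. Visceral endoderm markers moved with this comparison too: 8 of 11 tested were lower in FS, as were 5 of 7 epiblast markers, and their part was not tested. Of the pathway genes, 15 of 55 were higher in FS and 11 lower. Apc2, Prickle1 and the heparan sulphate proteoglycan Gpc4 were higher by 3.28 (4.08 without E5.5 embryo 1), 2.1 and 1.95. Axin2 fell by 1.17 on the log2 scale, Lef1 fell by 0.88 and Dvl1 fell by 0.87. The Axin2 call was lost without E5.5 embryo 1 (0.0543) or 3 (0.0614) and with line 1 alone (0.121).

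All cultured cells were last compared with all epiblasts, each group weighted equally. Of 39 members 29 passed, 25 higher and 4 lower in culture, beside 61.8% of all genes (33.9% higher and 27.9% lower). The median log2 difference of the members was 1.41 (1.34 with the gene read against near-zero counts set to its bound of 3 counts per sample), against 0.0868 over all genes. All 6 ligands that passed were higher in culture: Wnt3, Wnt4, Wnt5a, Wnt7a, Wnt8a and Wnt9a. Wnt4 averaged 4.47 CPM in culture and 0.750 CPM in epiblasts (log2 difference 2.53 ± 0.29, adjusted p = 1.07e-07), and Wnt9a averaged 2.13 and 0.200 CPM (3.31 ± 0.60, 5.7e-05, and 4.35 without E5.0 embryo 2). Wnt3 averaged 7.57 and 2.94 CPM with overlapping samples (1.59 ± 0.50, 0.0104, and 2.19 without E5.0 embryo 1). Of the 6 FS samples, 5 lay within the epiblast range or below it for Wnt3, Wnt5a and Wnt8a, all 6 for Wnt7a, 2 for Wnt9a and 1 for Wnt4. For Wnt7a no cultured sample exceeded the highest epiblast value of 3.36 CPM. The Wnt7a call was lost without AF p15 (0.0546) or E6.0 embryo 2 (0.0577).

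Rspo3 and Lgr5, an R-spondin and an R-spondin receptor, were both scarce in every epiblast. Rspo3 was at most 2.16 CPM and Lgr5 at most 0.692 CPM there, while culture averaged 7.38 and 8.61 CPM (log2 differences 4.50 ± 0.70 and 4.68 ± 0.79, adjusted p = 1.56e-05 and 4.7e-05). The difference was 5.25 for Rspo3 without E5.0 embryo 4, and 5.41 and 5.90 for Lgr5 without E5.0 or E5.5 embryo 1. Both overlapped: the FS samples other than line 1 p10 lay within the epiblast range. Lgr4 and Rspo1 were instead higher in epiblasts, by 0.46 ± 0.11 and 1.44 ± 0.31 in size, with 3 of 6 FS samples within the epiblast range or above it for each. Frzb, Sfrp1, Sfrp4, Dkk1, Dkk2 and Dkk3 passed as higher in culture over the groups weighted equally, the largest of these log2 differences being 3.47 ± 0.62 for Frzb (4.83 without E5.0 embryo 2 and 4.31 without E5.5 embryo 2). All 6 FS samples lay at or under the highest epiblast value for Sfrp4 (1.4 CPM) and Dkk1 (2.64 CPM, also above all 3 AFX samples), as did 5 of 6 for Dkk2, 3 for Frzb and 1 each for Sfrp1 and Dkk3. Dkk1 was not called without FS line 1 p10 (0.0692), Dkk2 without FS line 2 p12 (0.0565), nor Rspo4 without AF p14 (0.157) or E5.0 embryo 4 (0.0571).

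Of the receptors, Fzd1 separated completely, with a lowest cultured value of 4.48 CPM in AF and a highest epiblast value of 3.95 CPM (log2 difference 2.02 ± 0.31, adjusted p = 7.71e-06). Fzd7 and Lrp5 separated in the other direction. Among all members tested 3 of 39 did not overlap, beside 11.2% of all genes tested. Fzd7 averaged 107 CPM in culture and 220 CPM in epiblasts (-1.04 ± 0.09, 1.17e-09), and Lrp5 averaged 107 and 178 CPM (-0.74 ± 0.07, 4.16e-09). Fzd3, Fzd5, Fzd8, Fzd6 and Fzd2 were higher in culture by 1.24, 1.00, 0.94, 0.67 and 0.38 on the log2 scale, whereas Fzd4, Fzd9 and Fzd10 did not pass. All 6 FS samples lay at or under the highest epiblast value for Fzd8 (10.6 CPM), as did 4 of 6 for Fzd5 (40.7 CPM), while AF lay above it in all 3 samples for both. For Fzd2 no cultured sample exceeded the highest epiblast value of 67.0 CPM. Lrp6 and Ror2 were higher by 0.22 and 1.41, with 5 of 6 FS samples at or under the highest epiblast value for each. Cultured cells also differed from epiblasts in their markers. Of 8 fibroblast genes 6 were higher in culture and 1 lower, and of 11 visceral endoderm genes 1 was higher and 8 lower. Of 7 epiblast genes 2 were higher and 5 lower, and of 8 primitive streak genes 3 were higher and 1 lower. The part of these markers was not tested. Of 55 pathway genes 24 were higher and 14 lower in culture. Among those at 10 CPM or more in the higher group, the largest log2 differences upwards were 5.1 for Cer1 (4.43 without AFX p16 and 6.09 without E5.0 embryo 1), 2.23 for Gpc4 and 2.02 for Ror1. All 6 FS samples and 2 of 3 AFX samples lay within the epiblast range of Cer1 or below it, whereas AF was at 209 to 258 CPM. Axin2 fell by 1.61, Lef1 fell by 1.37 and Tcf7 fell by 0.84 in culture.

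**Figure D5:**
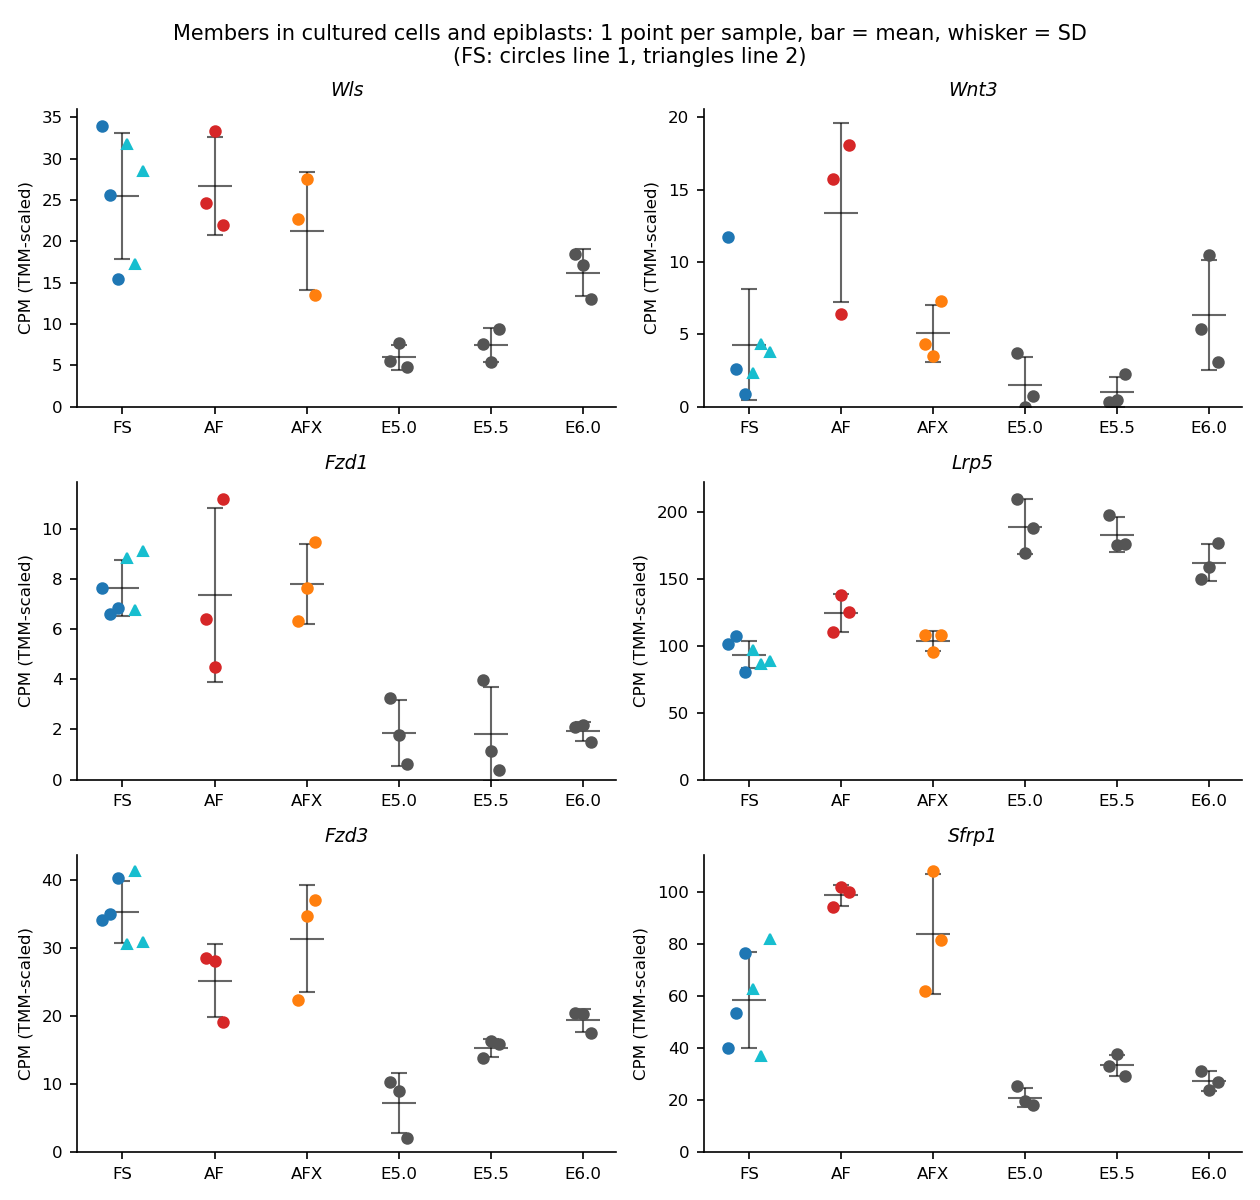
CPM (vertical axes, from 0) of 6 members in all 6 groups, 1 point per sample, with bars for means and whiskers for SD, cut at 0. Fzd1 lies at 4.48 CPM or more in every cultured sample and at 3.95 CPM or less in every epiblast, and Lrp5 is higher in every epiblast than in any cultured sample.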

How the data were processed

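Counts per gene were deposited by the authors for 21 samples as whole numbers, and 33683 of 33861 gene identifiers matched GENCODE M21 (GRCm38). Per the submitters' processing notes, Trim Galore, TopHat2 2.1.0, featureCounts 1.5.0 and mm10 were used; the annotation and strand setting are not given in the sources used here. Samples were grouped by title.

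Counts were fitted with edgeR 4.0.16 (R 4.3.3; TMM, filterByExpr, robust quasi-likelihood test, two-sided), with Benjamini-Hochberg adjustment over all genes tested and a threshold of 0.05. Cultured comparisons used 12 samples, stage comparisons 9 and culture against embryo all 21. Of the members, 37, 25 and 39 passed the count filter in these 3 fits, and 12 were tested in none. On simulated counts the test recovered 81% of 4-fold and 47% of 2-fold changes in FS against AF, and 73% of 4-fold changes from E5.0 to E5.5. The changes were planted only in genes of higher mean count, so these rates do not cover scarce members. CPM per kb used exon-union lengths.

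The named genes were members that passed a comparison or reached 10 CPM, and up to 3 pathway genes per direction at 10 CPM or more. The members, pathway lists and marker lists were chosen with earlier results of these data known. Alternatives were other size factors, DESeq2 1.42.0, other count filters, single FS lines, blocks of replicate number and each sample left out. Where a group held 1 to 3 counts in all, the ratio of summed counts is given with an exact interval, in place of the bound first planned.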

Additional observations from a re-analysis of the deposited data

Results flagged for a closer look

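Within the 6 FS samples, 7 of the 34 named members had 1 sample far from the others, judged by the gap to its nearest neighbour over the whole range. For normally distributed values chance flags about 1 in 20 such groups. How often it flags low, skewed counts such as these was not measured, and the 7 genes share their samples. In 6 of the 7 the sample was line 1 passage 10: Wnt8a at 24.0 CPM (next highest 2.13), Rspo3 at 12.6 CPM (1.53), Wnt3 at 11.7 CPM (4.32), Wnt5a at 9.03 CPM (1.90), Lgr5 at 2.48 CPM (0.472) and Dkk1 at 1.69 CPM (0.354). The remaining one was Dkk2 at 0.321 CPM in line 2 passage 12, next highest 0.0992 CPM, a level of at most 4 counts. The groups of 3 samples were not examined in this way.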

How the results depend on the processing

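The number of members called moved by over 1.5 times in several comparisons, and the cause was not tested. With the DESeq2 Wald test it was 8 in FS against AFX, 6 in AFX against AF, 4 between the FS lines and 6 from E5.0 to E5.5, in place of 4, 3, 2 and 3. All genes called by DESeq2 were 1980 in FS against AFX and 1963 in AFX against AF, in place of 1397 and 1401, and 1099 between the lines, 1590 from E5.0 to E5.5 and 1075 from E5.5 to E6.0, in place of 618, 971 and 631. Testing genes of at least 5 CPM, which drops low members from the test, left 9 of 21 in FS against AF (20.3% of all genes), 1 of 21 in AFX against AF (10.1%), 1 of 21 between the lines (4.68%), 9 of 17 in FS against E5.5 (50.8%) and 14 of 17 in cultured cells against epiblasts (67.4%). With no filter there were 7 between the lines, 6 from E5.0 to E5.5 and 9 from E5.5 to E6.0, and 1298, 1659 and 1107 among all genes. Fitting the compared groups alone gave 1 member from E5.0 to E5.5 and 7 from E5.5 to E6.0, and 1045, 453 and 1445 among all genes between the lines and at these 2 steps. Against AFX, FS line 1 alone gave 2 members (6.87% of all genes), line 2 alone 11 (12.2%), and the lines as separate groups 8 (12.9%), which gave 6 in AFX against AF (11.6%). The sign of Wnt8a in FS against AFX, -0.80 in all, became 0.12 with line 1 alone; neither passed.

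Leaving out each sample in turn gave 14 to 19 members in FS against AF, 2 to 10 in FS against AFX, 1 to 4 in AFX against AF, 0 to 3 between the lines, 1 to 4 from E5.0 to E5.5, 0 to 3 from E5.5 to E6.0, 6 to 10 from E5.0 to E6.0, 12 to 17 in FS against E5.5 and 28 to 31 in cultured cells against epiblasts. All genes called ran from 2263 to 3386 in FS against AF and 820 to 1485 in FS against AFX. They numbered 732 to 1129 in AFX against AF, 316 to 478 between the lines and 371 to 1260 from E5.0 to E5.5. The other stage comparisons gave 238 to 372 from E5.5 to E6.0 and 1905 to 3362 from E5.0 to E6.0. FS against E5.5 gave 6096 to 7019, and cultured cells against epiblasts 9981 to 10625. These fits tested 36 to 38 members and 15853 to 16647 genes between cultures. Between stages they tested 26 to 27 members and 14769 to 15010 genes. For culture against embryo they tested 38 to 40 members and 16521 to 17509 genes.

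The labels do not say whether replicate numbers pair passages or embryos. Correlations of same-numbered deviations ran from -0.125 to 0.196, and differently numbered samples were not compared, so pairing is not decided. With a replicate block the members called were 5 in AFX against AF, 1 from E5.0 to E5.5, 4 from E5.5 to E6.0 and 6 from E5.0 to E6.0, and among all genes 907, 421, 707 and 2251. The named calls lost under it were Lgr4 in AFX against AF (adjusted p = 0.0535), Axin2, Lrp6 and Fzd2 from E5.0 to E5.5 (0.168, 0.0759 and 0.170), Ror2 from E5.5 to E6.0 (0.0513), and Wls and Fzd7 from E5.0 to E6.0 (0.0513 and 0.0873). Members gained were Dkk1, Fzd5, Fzd10 and Wnt3 in AFX against AF (0.00412, 0.0309, 0.0265 and 0.0353), where Fzd9 was not tested, and Sfrp2 from E5.5 to E6.0 (0.0447). Library totals in place of TMM moved 13 of 306 mean levels by more than 1 SD. Counts of the scarcer ligands limit their precision.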

Other observations

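Summed by role, the 10 Frizzled genes came to 243 ± 11.8 CPM in FS (SD, n = 6), 379 ± 18.7 in AF and 322 ± 75.1 in AFX, and to 300 ± 28.9, 293 ± 27.4 and 430 ± 40.2 CPM at E5.0, E5.5 and E6.0 (SD, n = 3 each). The 7 R-spondins and their receptors, of which Lgr4 is the largest share, came to 137 ± 13.4, 89.8 ± 9.18 and 76.4 ± 3.52 CPM at the 3 stages. The 2 secretion genes came to 7.07 ± 2.22, 7.49 ± 2.06 and 17.4 ± 3.32 CPM. The 4 Dickkopf genes came to 19.9 ± 1.78 CPM in AF, 4.1 ± 1.61 in AFX and 2.58 ± 1.43 in FS, and to at most 2.76 CPM in any epiblast. These sums were not tested.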
